A study of Homo sapiens with 6 samples.

Results

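HES1, HES5 and DLL1 are 3 genes of the Notch pathway, and the chromatin at these genes was read from 4 deposited peak lists. The members were chosen by position: every peak of the lists that overlapped a fixed window around each gene on genome build hg19. The windows were chromosome 3 at 193844 to 193867 kb for HES1, chromosome 1 at 2450 to 2472 kb for HES5, and chromosome 6 at 170581 to 170610 kb for DLL1. They held 63 of the 142800 peaks in all lists together.

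Neural progenitor cells were derived from WA-09 (H9), a widely used embryonic stem cell line of human origin, and harvested at day 11 of a protocol that leads to midbrain dopamine neurons. H3K4me3 and H3K27me3 were mapped by ChIP-seq in Boost-Chir and in Low-Chir cultures, with 1 library per mark and condition. All cultures were started with sonic hedgehog (SHH C25II), the inhibitors LDN and SB431542 and a Rock inhibitor, with 0.7 µM CHIR99021, which inhibits the kinase GSK3 and so activates canonical WNT signalling. Boost-Chir cultures were then moved to 7.5 µM CHIR99021 on day 4 and kept in it until day 10. From day 10 the medium of both conditions held 3 µM. The labels do not state which concentration Low-Chir cultures had between day 4 and day 10. A single cell line was used, no difference below has a replicate check, and in a bulk culture a mark on some cells and a weaker mark on all cells cannot be told apart.

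Notch signalling passes between touching cells. A ligand such as DLL1 on one cell binds a Notch receptor on its neighbour, and the cleaved receptor enters the nucleus and joins the DNA-binding protein RBPJ. HES1 and HES5, which encode basic helix-loop-helix repressors, are among the best known genes switched on by this complex, and they hold neural progenitors back from becoming neurons. DLL1 is a ligand gene and is itself kept down by HES proteins. H3K4me3 marks active and poised promoters, and H3K27me3 is laid down by Polycomb repressive complexes.

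Upstream sequence is shown for the 2 target genes because the letters that RBPJ reads are written in it, just before the gene start. Of the 3 members, 2 had an entry in the RefSeq promoter table, and the 250 bases before the gene start are given 5′ to 3′ in the direction of the gene. Capitals mark each match to TGGGAA, the core of the RBPJ motif, or to its reverse complement. The HES1 sequence is chr3:194135898-194136147 on the plus strand of GRCh38.p14, and the HES5 sequence is chr1:2530264-2530513 on the minus strand of GRCh38.p14. This build differs from that of the peaks, so the sequences were not placed within peaks.
HES1: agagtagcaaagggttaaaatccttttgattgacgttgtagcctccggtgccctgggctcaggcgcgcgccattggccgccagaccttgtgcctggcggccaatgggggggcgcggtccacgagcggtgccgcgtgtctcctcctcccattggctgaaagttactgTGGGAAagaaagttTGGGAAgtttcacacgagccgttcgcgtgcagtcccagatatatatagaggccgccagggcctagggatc
HES5: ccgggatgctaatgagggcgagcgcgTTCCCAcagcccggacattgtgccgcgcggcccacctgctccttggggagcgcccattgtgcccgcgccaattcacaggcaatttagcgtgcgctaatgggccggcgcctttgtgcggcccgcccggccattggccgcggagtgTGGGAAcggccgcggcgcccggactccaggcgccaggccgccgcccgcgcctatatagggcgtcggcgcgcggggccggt

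Each of these 250-base stretches held 2 matches to TGGGAA. In HES1 both lay on the gene's own strand, starting 84 and 70 bases before the gene start, and in HES5 they started 224 bases before it on the opposite strand and 80 bases before it on the gene's own strand. Among all 27305 RefSeq stretches of the same length, 2.93% held at least 2 matches on either strand and 21.1% held at least 1. The longer form GTGGGAA, which contains the core, matched at 1 place in HES1 and at 2 in HES5, where 5.42% of all stretches held at least 1 match and 0.161% at least 2. CACNAG, the N-box bound by HES proteins, matched at 3 places in HES1 and at 0 in HES5. Of all stretches, 0.952% held at least 3 matches and 32.2% held at least 1. The CCAAT box was found at 3 places in HES1 and at 2 in HES5. At least 2 were held by 9.76% of stretches and at least 3 by 2.98%. Both strands were searched, and apart from the shared letters of the 2 RBPJ forms these matches did not overlap each other. The TCF motif of WNT-responsive factors was searched as CTTTGNN with A or T in both last places. It was not found in either stretch, and 12.3% of all stretches held at least 1 match. A match here is a description of letters, not a measured binding site.

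The windows differed in the marks they carried, though HES1 and DLL1 both had H3K4me3 alone in Boost-Chir. HES1 had H3K4me3 alone, with 0 bp of H3K27me3 in Boost-Chir and 0 bp in Low-Chir. HES5 carried separate H3K27me3 peaks over part of the middle of its window, on 55.35% of its bases in Boost-Chir and 30.1% in Low-Chir. A small H3K4me3 peak there lay mostly under H3K27me3 as well. The DLL1 window held a long run of H3K4me3 that continued above the middle. This run covered 47.2% of the middle in Boost-Chir and 39.2% in Low-Chir. H3K27me3 in the DLL1 window covered 0 bp in Boost-Chir and 682 bp in Low-Chir.

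**Figure D1:**
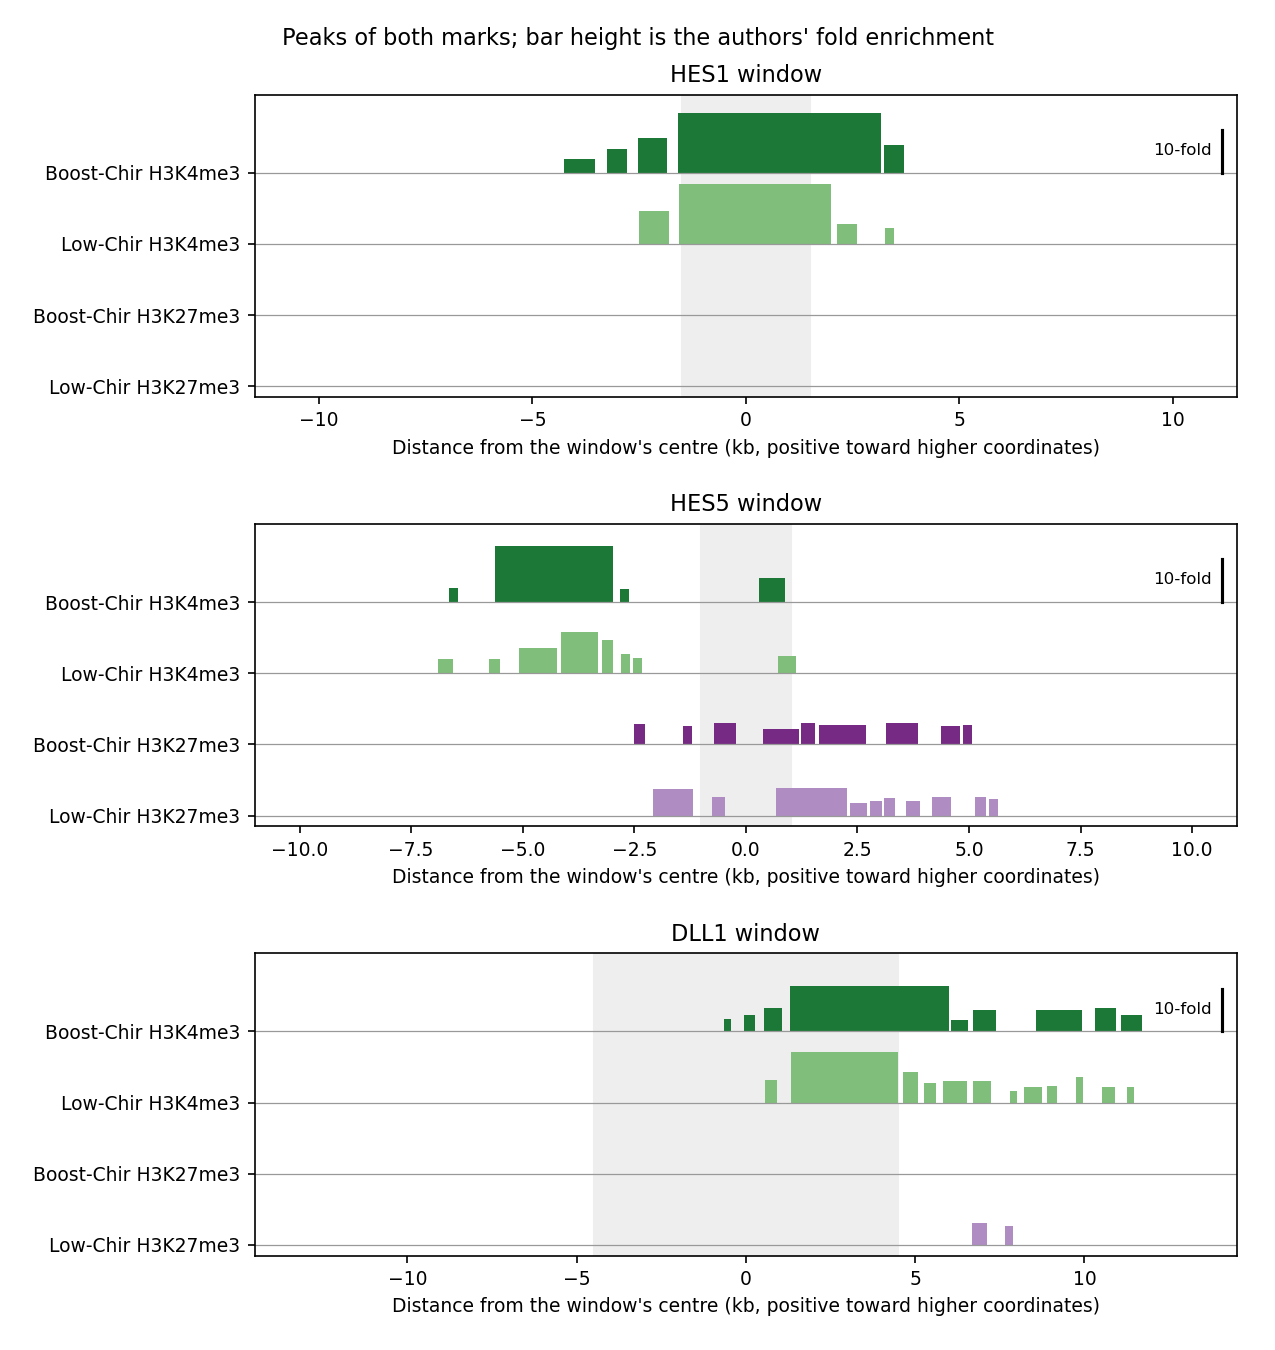
Peaks in the HES1, HES5 and DLL1 windows by distance from the window's centre (kb), with a track for each mark and condition. Bar height is the authors' fold enrichment, a single value per peak (scale bar, 10-fold). Grey marks the middle of the window, more than 10 kb from both edges. H3K4me3 covers the whole middle of the HES1 window, and H3K27me3 peaks lie over part of the middle of the HES5 window. The DLL1 run extends to the right of the middle.

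HES1, the Notch target with the most enriched H3K4me3 of the 3 windows, had 5 H3K4me3 peaks covering 7100 bp in Boost-Chir and 4 peaks covering 4942 bp in Low-Chir. Fold enrichment, the authors' ratio of signal over the local background estimate, reached 14.0 in Boost-Chir and 14.1 in Low-Chir at the highest peak. These heights were at or above 95.8% of all peaks in the Boost-Chir list and 98.6% of those in the Low-Chir list. HES1 thus ranked among the more enriched places of either list.

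That HES1 peak ran from 193853915 to 193858666 (4752 bp) in Boost-Chir and from 193853928 to 193857491 (3564 bp) in Low-Chir. In both lists it covered all 3 kb of the middle of the window, taken as more than 10 kb from both edges. No hg19 annotation was used here, so the gene's place in the window rests on the window having been drawn around it. Just below the peak lay a gap without H3K4me3, 265 bp long in Boost-Chir and 230 bp long in Low-Chir. The peak on the lower side of this gap reached 8.05-fold in Boost-Chir and 7.67-fold in Low-Chir, and its summits, at 193853290 and 193853291, were 1 bp apart.

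The HES1 summit held 61 reads in Boost-Chir (exact Poisson 95% interval 46.7 to 78.4) and 49 reads in Low-Chir (36.3 to 64.8). Read numbers were recovered from the fold and p-value of each peak, and all intervals here cover counting error only. Divided by the genome-wide background of each library, taken as the measure of its depth, the values were 22.8 and 22.2 summit reads per background read. The ratio of Boost-Chir to Low-Chir was 1.03 (exact binomial 95% interval 0.696 to 1.53), an interval that includes no difference. The summits themselves lay 1480 bp apart within the broad peak, at 193854857 in Boost-Chir and 193856337 in Low-Chir.

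The extra HES1 length in Boost-Chir lay at the sides. Of the 4942 bp in Low-Chir, 4894 bp (99.0%) were also under a Boost-Chir peak, while 2206 bp were covered in Boost-Chir alone and 48 bp in Low-Chir alone. The covered stretch reached 1764 bp further toward lower coordinates in Boost-Chir, through peaks of 3.12-fold and 5.60-fold, and 242 bp further toward higher ones. At the higher side, Boost-Chir had the end of its main peak and a last one of 6.51-fold, where Low-Chir had 2 separate peaks of 4.70-fold and 3.84-fold.

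The window of DLL1, the ligand gene, had the longest H3K4me3 run of the 3 windows. The run had 9 peaks covering 9531 bp in Boost-Chir and 12 peaks covering 7394 bp in Low-Chir. It spanned 12.3 kb in Boost-Chir and 10.9 kb in Low-Chir. The highest peak reached 10.6-fold in Boost-Chir and 11.8-fold in Low-Chir, at or above 84.7% and 93.7% of the peaks in these lists. In height it stood below HES1 in both conditions.

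The main DLL1 peak ran from 170596813 to 170601486 (4674 bp) in Boost-Chir. In Low-Chir it ran from 170596828 to 170599998 (3171 bp), followed after a gap of 152 bp by peaks of 441, 327 and 695 bp. The start of the main peak thus differed by 15 bp between conditions, while its far end took in bases in Boost-Chir that were under separate peaks in Low-Chir. Its summit held 44 reads in Boost-Chir (32.0 to 59.1) and 37 reads in Low-Chir (26.1 to 51.0), or 16.5 and 16.7 summit reads per background read. The ratio was 0.984 (0.621 to 1.57), again an interval that includes no difference.

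Above the middle of the window, DLL1 H3K4me3 covered 5280 bp in Boost-Chir, the end of the main peak included, and 3863 bp in Low-Chir. DLL1 is read from the reverse strand, so higher coordinates are upstream of the gene. The next gene above DLL1 in RefSeq order is FAM120B, and the peaks beyond the main one on this side were not assigned to either gene. The farthest peaks ended at 170607189 in Boost-Chir and at 170606969 in Low-Chir. Beyond the main peak, upstream enrichment was highest at 5.40-fold in Boost-Chir, at 170605820 to 170606446, and at 7.16-fold in Low-Chir, at 170600151 to 170600591, a place under the main peak in Boost-Chir. On the other side, 2 weak peaks of 2.99-fold and 3.78-fold between 170594868 and 170595784 were listed in Boost-Chir only. Of the Low-Chir length, 6729 bp (91.0%) were shared, 2802 bp were covered in Boost-Chir alone and 665 bp in Low-Chir alone.

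The DLL1 window held 0 H3K27me3 peaks in Boost-Chir and 2 in Low-Chir. The Low-Chir peaks lay upstream at 170602177 to 170602636, with a fold of 5.02 and 21 reads (13.0 to 32.1), and at 170603160 to 170603381, with a fold of 4.34 and 18 reads (10.7 to 28.4). They were of ordinary strength, at or above 74.4% and 47.6% of the Low-Chir H3K27me3 peaks by −log10 q. In the Boost-Chir H3K27me3 list, the weakest summit of any peak held 11 reads, so a weaker mark at these bases may have gone unlisted. Of H3K27me3 loci over the genome, 20.4% were likewise present in the Low-Chir list alone and 22.4% in the Boost-Chir list alone. Of the 682 bp in Low-Chir, 519 bp also lay under H3K4me3.

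**Figure D2:**
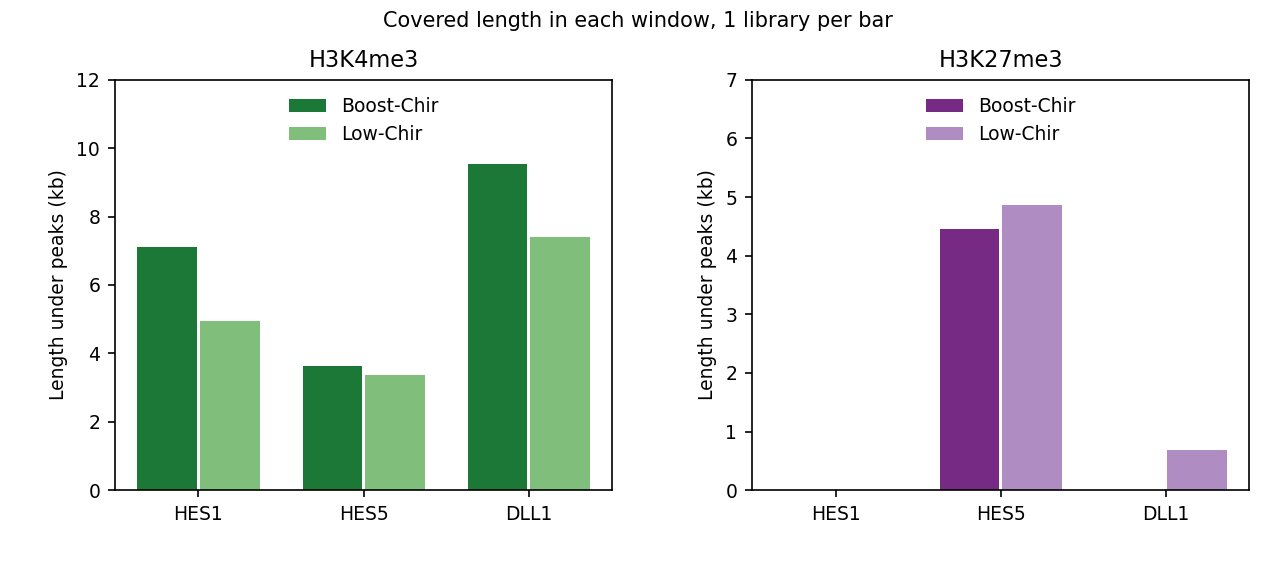
Length under peaks (kb) in each gene's window, for H3K4me3 on the left and H3K27me3 on the right, with Boost-Chir and Low-Chir bars from 1 library each. H3K4me3 covers 7.10 and 4.94 kb at HES1, 3.63 and 3.36 kb at HES5, and 9.53 and 7.39 kb at DLL1 in Boost-Chir and Low-Chir, and H3K27me3 is long at HES5 only.

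HES5, a Notch target widely used as a marker of neural progenitors, had its highest H3K4me3 peak outside the middle of the window in both conditions, whereas the highest peaks of HES1 and DLL1 overlapped the middle. The 4 Boost-Chir peaks covered 3632 bp and the 8 Low-Chir peaks 3358 bp. A lower group of 3 peaks from 2454343 to 2458391 held 3056 bp in Boost-Chir, and 7 peaks from 2454094 to 2458676 held 2933 bp in Low-Chir. The next protein-coding gene below HES5 in RefSeq order is PANK4, and this lower group was not assigned to either gene.

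The lower group was the strongest H3K4me3 of the HES5 window. Its highest peak reached 13.2-fold with 48 summit reads in Boost-Chir (35.4 to 63.6) and 9.58-fold with 31 reads in Low-Chir (21.1 to 44.0). The summits were 5 bp apart, at 2457490 in Boost-Chir and 2457495 in Low-Chir. Per background read these were 18.0 and 14.0 summit reads, and the ratio of 1.28 had an interval of 0.799 to 2.08. Boost-Chir had a single peak of 2636 bp there, where Low-Chir had peaks of 244, 857, 826 and 242 bp.

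Over the middle of the HES5 window stood 1 small H3K4me3 peak per condition, separated from the lower group by 2900 bp in Boost-Chir and 3033 bp in Low-Chir. In Boost-Chir it ran from 2461292 to 2461867 (576 bp) with a fold of 5.72 and 20 reads (12.2 to 30.9). In Low-Chir it ran from 2461710 to 2462134 (425 bp) with a fold of 4.05 and 12 reads (6.20 to 21.0). Its Low-Chir summit, at 2462076, lay just above the middle. The peaks overlapped, but the summits lay 572 bp apart. The ratio of summit reads per background read was 1.38, with an interval of 0.642 to 3.09, so the higher Boost-Chir value was not distinguishable from counting error at this depth. The H3K4me3 peak over the middle of the HES5 window was thus far weaker than the highest HES1 peak in both libraries. It held 7.48 against 22.8 summit reads per background read in Boost-Chir and 5.43 against 22.2 in Low-Chir. The lower group, not assigned to a gene, reached 18.0 in Boost-Chir and 14.0 in Low-Chir.

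H3K27me3 crossed the HES5 window in 9 peaks covering 4459 bp in Boost-Chir and 10 peaks covering 4864 bp in Low-Chir. The first peak began 97 bp above the end of the lower H3K4me3 group in Boost-Chir and 245 bp above it in Low-Chir, so the marks met there without overlap. The run ended at 2466071 in Boost-Chir and at 2466647 in Low-Chir. Single peaks shifted more than the run as a whole: 2962 bp were shared, 1497 bp were covered in Boost-Chir alone and 1902 bp in Low-Chir alone.

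The difference in HES5 H3K27me3 length had no stable direction. Over the middle of the window the order was the other way, with 1.11 kb in Boost-Chir and 0.602 kb in Low-Chir, and the total was also longer in Boost-Chir by 1015 bp when the top 50% of each list by −log10 q was kept. The peak with the highest fold reached 4.94 with 19 reads in Boost-Chir (11.4 to 29.7) and 6.42 with 26 reads in Low-Chir (17.0 to 38.1). These summits lay 2659 bp apart, and their ratio of summit reads per background read was 0.752, with an interval of 0.394 to 1.41. Another Boost-Chir peak, at 2462239 to 2462552, overlapped the highest Low-Chir peak and held 26 reads over a higher local background, at 4.89-fold. Set against that Low-Chir peak, its ratio was 1.03, so the direction turned with the choice of peak.

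**Figure D3:**
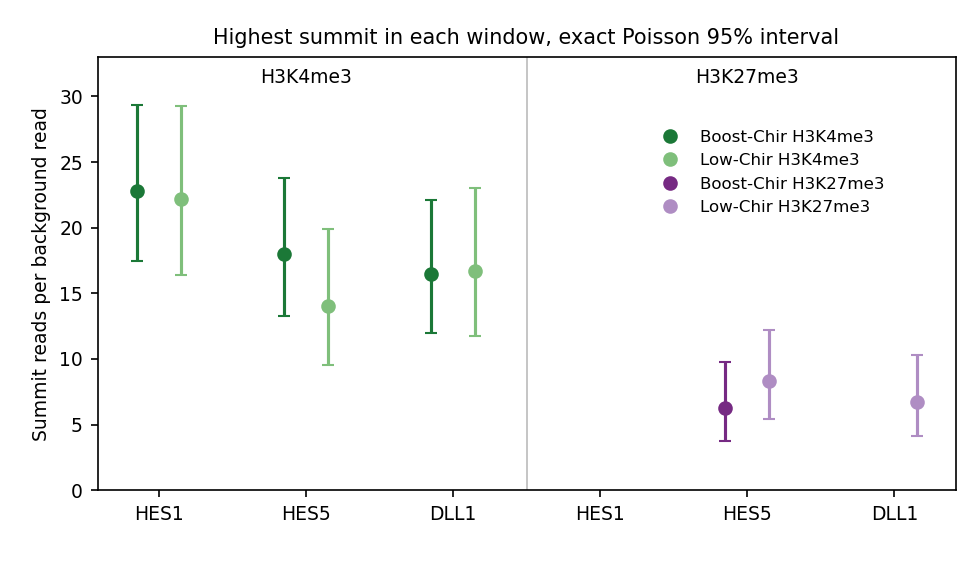
Reads at the highest summit (by fold enrichment) of each window, divided by the genome-wide background reads of its library, with exact Poisson 95% intervals. Boost-Chir and Low-Chir intervals overlap at every gene and mark with a peak in both lists, HES1 has the highest H3K4me3 value at 22.8 and 22.2, and DLL1 H3K27me3 has a Low-Chir point only.

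Overlap of the marks was small even at HES5. Bases under both marks numbered 480 in Boost-Chir and 425 in Low-Chir, all within the small H3K4me3 peak over the middle, of which 83.3% and 100% lay under H3K27me3. The Low-Chir overlap rested on weak H3K4me3, with a −log10 q of 4.09 there against 9.65 in Boost-Chir, and it was 0 bp when a −log10 q of at least 5 was asked of every peak. At DLL1 the overlap was 0 bp in Boost-Chir and 519 bp in Low-Chir, and at HES1 it was 0 bp in both. Over the genome, 19.7% of 16002 joined H3K4me3 regions in Boost-Chir and 20.4% of 15614 in Low-Chir held H3K27me3 between their ends. These shares count regions and not bases under both marks, so they are a different measure from the lengths above. Peaks of both marks at a place do not show that both sat on the same chromosomes.

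The changes at the 3 genes were then set beside those at every locus, with peaks of both conditions joined within 3 kb. A locus was called longer or shorter when its covered length differed at least 1.5 times and by at least 1 kb. Of the 3 H3K4me3 loci in the windows, 0 were called, where 16.5% of 16580 H3K4me3 loci were longer in Boost-Chir and 0.971% were shorter. Of the 2 H3K27me3 loci 0 were called, where 5.43% of 7868 H3K27me3 loci were longer and 10.5% shorter. The DLL1 H3K27me3 locus could not have been called, because its whole listed length, 682 bp, falls short of the 1 kb minimum. For H3K27me3 the rule could therefore decide on the HES5 locus only. The 3 H3K4me3 loci were all longer in Boost-Chir by some amount, as were 79.7% of H3K4me3 loci, so this direction was the common one.

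In size the H3K4me3 loci of the windows sat within the general shift. The ratio of covered length, Boost-Chir over Low-Chir, was 1.44 at HES1, 1.29 at DLL1 and 1.08 at HES5, against a median of 1.28 over 14475 H3K4me3 loci in both lists (quartiles 1.08 and 1.53). The HES1 ratio was at or above that of 67.6% of these loci, the DLL1 ratio 51.4% and the HES5 ratio 25.6%. The HES5 ratio rested mostly on the lower group, not assigned to a gene, with 3056 bp in Boost-Chir and 2933 bp in Low-Chir. The small peak over the middle of that window covered 576 bp in Boost-Chir and 425 bp in Low-Chir. For HES5 H3K27me3 the ratio was 0.917, next to the median of 0.917 over 4499 loci. The recovered genome-wide background, taken as the measure of depth, was 1.21 times as high in the Boost-Chir H3K4me3 library as in the Low-Chir one. The part of depth in the greater lengths was not tested. For H3K27me3 the background ratio was 0.971.

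**Figure D4:**
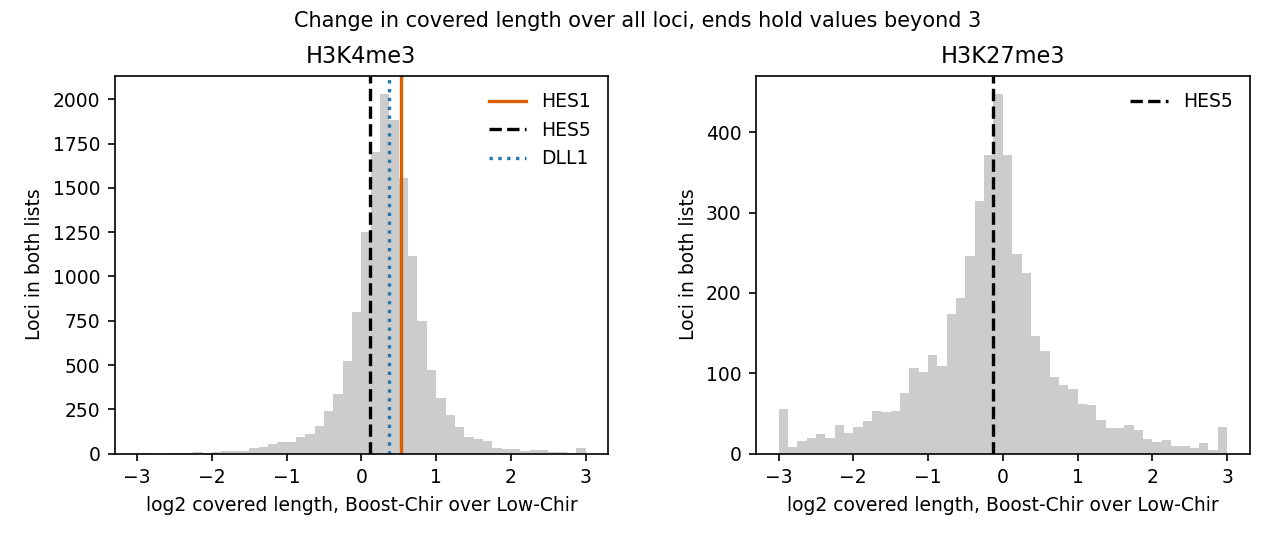
Number of loci in both lists by the log2 ratio of covered length, Boost-Chir over Low-Chir, for H3K4me3 on the left and H3K27me3 on the right, with lines at the HES1, HES5 and DLL1 loci. All lines stand in the bulk of the loci, at ratios of 1.44, 1.08 and 1.29 for H3K4me3 and 0.917 for HES5 H3K27me3.

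By summit reads per background read the order of the genes was different. The H3K4me3 ratio of 1.28 in the HES5 window, from the lower group of peaks, was at or above that of 82.9% of loci in both lists, the HES1 ratio of 1.03 at or above 39.5% and the DLL1 ratio of 0.984 at or above 30.4%. The HES5 H3K27me3 ratio of 0.752 was at or above 13.2%. A ratio of at least 1.5 in either direction was reached by 0 of the 3 H3K4me3 loci, where 4.63% of H3K4me3 loci in both lists were higher in Boost-Chir and 2.34% lower. It was not reached by the HES5 H3K27me3 locus, where 1.02% of H3K27me3 loci were higher and 4.58% lower. The median summit ratio was 1.08 for H3K4me3 and 0.931 for H3K27me3.

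Within each condition, the loci in the HES1 and DLL1 windows were broader than most. The HES1 locus was at least as long as 94.7% of H3K4me3 loci in Boost-Chir and 91.2% in Low-Chir. For the DLL1 locus these shares were 98.2% in Boost-Chir and 97.9% in Low-Chir. The DLL1 locus includes the peaks above its main one, which were not assigned to a gene. Medians over loci were 2810 bp in Boost-Chir and 2218 bp in Low-Chir. The HES5 locus, which joins the lower group and the small peak at the middle, stood at 64.5% and 74.1%. Its H3K27me3 run was at least as long as 83.6% of H3K27me3 loci in Boost-Chir and 82.5% in Low-Chir.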

How the data were processed

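The deposited lists hold 1 row per peak. Per the peak names, every antibody library had been set against the input of the same culture condition, and nothing was pooled. The authors' values used here are the fold enrichment (a ratio), the −log10 p-value, the −log10 q-value and positions. The deposited score repeats the −log10 q-value and was not used. The submitters' processing notes name hg19, cutadapt 1.6, BWA 0.7.12 and Picard. Which peak caller was used, and with what threshold, is not given in the sources used here. The 2 input samples were not analysed here.

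Covered length is the whole length of peaks that overlap a window. Peaks within 3 kb were joined into loci. Reads at a summit were solved from fold and p-value, taking fold as (reads + 1) over (background + 1) and p as a Poisson tail, and the deposited −log10 p was returned within 0.001 for 100% of peaks. Only whole numbers of reads were tried, and for H3K27me3 a constant that scales them was fitted as well. The genome-wide background was 2.67 reads in Boost-Chir and 2.21 in Low-Chir for H3K4me3, and 3.03 and 3.12 for H3K27me3, and median summits held 18 and 17, and 18 and 20 reads. The lists state no depth. Intervals are exact Poisson for reads and exact (Clopper-Pearson) binomial for ratios, at 95%.

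With 1 library per mark and condition no test between conditions was possible. The members, windows, lists and rules were chosen with earlier results of these data known. The text names the 3 genes of the rule, with every peak counted and the highest peak of each list and window given. Other genes of the Notch pathway were not analysed here, since coordinates were not converted between builds. Neighbouring genes and upstream sequences are from RefSeq, GRCh38.p14. Python 3.11.15, numpy 2.4.6, scipy 1.17.1 and matplotlib 3.10.9 were used, and the code was tested on simulated data. Alternatives covered peak strength, window edges, depth scaling, joining and the fold.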

Additional observations from a re-analysis of the deposited data

How the results depend on the processing

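No paired analysis was possible because no group has more than 1 library. Of 100 alternative values, 68 stayed within 1.5 times the reported one (or, for read ratios, within its interval on either side of 1), 29 moved further and 3 reversed. Part of the 68 could not have moved. A length or peak number of 0 stays 0 under stricter limits on peaks. All peaks lay inside their windows, so counting only bases inside the window left every length unchanged. The reversals were HES5 H3K27me3 length, Boost-Chir minus Low-Chir, at 1015 bp with the top 50% of peaks, 375 bp with a −log10 q of at least 5 and 505 bp in the middle of the window, against -405 bp as reported. HES5 H3K4me3, 274 bp longer as reported, was 1287 bp longer with the top 50%, 1068 bp with the q minimum and 156 bp in a window widened by 10 kb. DLL1 H3K4me3, 2137 bp longer as reported, was 3697 bp longer with the top 50% and 1414 bp longer with the same number of peaks per list. In the middle of the window, an alternative chosen after seeing the data, the H3K4me3 difference was 0 bp at HES1 and 720 bp at DLL1, and DLL1 H3K27me3 was 0 bp in both conditions. Overlap of the marks in Low-Chir was 0 bp at HES5 under both stricter settings and 0 bp at DLL1 with the top 50%. Joined within 3 kb, the peaks of a mark made 1 group per window and condition where present, except 2 for HES5 H3K4me3 in Low-Chir. At HES5 the q minimum left 2 Boost-Chir and 4 Low-Chir peaks of H3K4me3, and 5 Low-Chir peaks of H3K27me3. With a fold of 2, H3K4me3 loci numbered 774 longer and 94 shorter in Boost-Chir, 60 higher and 42 lower by summit reads, and H3K27me3 loci 1 higher and 3 lower. The cause of these moves was not tested. Depth limits the summit values most at HES5, where the H3K4me3 interval over the middle runs from 0.642 to 3.09.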

Other observations

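Distances to H3K27me3 peaks outside the windows were not set beside distances over the genome. The nearest H3K27me3 peak outside the HES5 window lay 72.8 kb below it in Boost-Chir and 72.2 kb below it in Low-Chir. Around HES1 the nearest one was 54.0 kb above the window in Boost-Chir and 50.1 kb above it in Low-Chir. Around DLL1 it was 207 kb above the window in Boost-Chir and 310.0 kb above it in Low-Chir. The Low-Chir peaks upstream of DLL1 were thus not the edge of a longer run of listed H3K27me3 peaks. A mark too weak to be listed could not be seen here.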
